A study of Homo sapiens with 8 samples.

Results

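The clustered protocadherin genes were followed in 8 RNA sequencing libraries made from the PATU-8902 cell line, which derives from a human pancreatic adenocarcinoma (1 label spells it A-TU-8902). They were taken as every protein-coding gene whose symbol starts with PCDHA, PCDHB or PCDHG, which gave 53 of the 58302 genes in the count table, with 15 in the alpha cluster, 16 in the beta cluster and 22 in the gamma cluster. RNA came from cell lines lysed on the plate, per the extraction protocol, although the description of each library speaks of a xenograft. The libraries fall into 3 groups. The resistant group (3 libraries) is 1 line, propagated in culture from a tumour that shYAP/WWTR1 cells had formed in a Nu/Nu nude mouse, studied under doxycycline and labelled resistant to GNE-7883, an inhibitor of the TEAD transcription factors. The shYAP+TAZ group (3 libraries) carries hairpins against YAP1 and WWTR1 (the gene for TAZ), the coactivators through which Hippo signalling acts on TEAD, and the shNTC group (2 libraries) carries a control hairpin. Both of these are labelled sensitive to GNE-7883, and the labels do not say whether they received doxycycline. In resistant against either other group, resistance, passage through the mouse and the choice of 1 line therefore cannot be told apart, nor can doxycycline.

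Clustered protocadherins are cell-surface proteins of the cadherin superfamily that recognise the same isoform on a neighbouring cell, and they are best known from neurons, where the mix of isoforms gives each cell an identity. In the alpha and gamma clusters, each member begins with a large variable exon of its own, which carries a separate promoter and is spliced to constant exons shared by the whole cluster, whereas beta genes have no shared exons. Most of these promoters hold a conserved sequence element around the letters CGCT, and DNA looping by CTCF and cohesin brings a chosen promoter to an enhancer of the cluster.

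All members lie on the plus strand of chromosome 5, in GRCh38 coordinates of GENCODE 29. The alpha cluster spans 140786136 to 141012347, the beta cluster 141051135 to 141249365 and the gamma cluster 141330571 to 141512981. The stretches just upstream of 5 members are shown because the results turn on these genes: PCDHAC1 stands for the alpha members higher with the hairpins, PCDHB2 and PCDHGC3 are highest in resistant libraries, PCDHGB2 is lowest there, and PCDHGB7 is the most abundant member. They come from RefSeq on GRCh38.p14, plus strand, 5′ to 3′. Each ends before the earlier of the RefSeq and GENCODE starts of the gene. Capitals mark CGCT on either strand (AGCG is its reverse complement).
PCDHAC1, chr5:140926049-140926298: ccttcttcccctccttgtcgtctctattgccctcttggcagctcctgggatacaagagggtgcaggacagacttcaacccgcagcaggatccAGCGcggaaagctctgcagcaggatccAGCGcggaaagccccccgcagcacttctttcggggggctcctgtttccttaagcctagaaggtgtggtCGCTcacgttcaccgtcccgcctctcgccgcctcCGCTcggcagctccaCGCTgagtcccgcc
PCDHB2, chr5:141094365-141094577: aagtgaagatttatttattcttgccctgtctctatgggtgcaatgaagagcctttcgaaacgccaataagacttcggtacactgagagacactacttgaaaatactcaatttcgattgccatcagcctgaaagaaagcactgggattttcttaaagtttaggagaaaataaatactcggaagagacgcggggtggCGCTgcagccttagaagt
PCDHGB2, chr5:141359886-141360041: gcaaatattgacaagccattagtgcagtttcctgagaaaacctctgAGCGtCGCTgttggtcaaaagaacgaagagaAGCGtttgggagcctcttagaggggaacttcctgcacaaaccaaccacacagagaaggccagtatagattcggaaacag
PCDHGB7, chr5:141417427-141417644: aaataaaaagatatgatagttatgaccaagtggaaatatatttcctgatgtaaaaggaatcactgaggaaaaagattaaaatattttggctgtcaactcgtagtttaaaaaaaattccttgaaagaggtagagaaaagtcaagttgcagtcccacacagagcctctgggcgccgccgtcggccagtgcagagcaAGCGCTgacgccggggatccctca
PCDHGC3, chr5:141475716-141475946: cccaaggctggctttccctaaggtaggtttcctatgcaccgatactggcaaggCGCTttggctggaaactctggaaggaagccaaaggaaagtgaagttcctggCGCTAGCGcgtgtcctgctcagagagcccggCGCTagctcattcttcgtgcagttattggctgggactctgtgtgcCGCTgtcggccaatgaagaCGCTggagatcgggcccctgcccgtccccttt

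These stretches of 250, 213, 156, 218 and 231 bases held 5, 1, 3, 2 and 6 matches, and the 2 in PCDHGB7 overlap as AGCGCT. RefSeq windows of 250 bases before and 50 bases after the start were at hand for 47 of the 53 members, as 52 windows. CGCT, searched on both strands, was found in 12 of 13 alpha, 14 of 14 beta and 25 of 25 gamma windows, against 70% of all 35116 windows of the same length. CATTCC, the letters TEAD proteins are known to bind, was found in 3 of 13 alpha, 3 of 14 beta and 3 of 25 gamma windows, against 14% of all windows, and in none of the 5 stretches printed here. A match is a run of letters and not a site of binding.

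Levels were low throughout. Total counts per library ran from 17521154 to 22629727, and the 53 members together averaged 70.3 ± 1.42 CPM in resistant, 90.9 ± 2.69 CPM in shYAP+TAZ (SD, n = 3 each) and 69.7 ± 3.81 CPM in shNTC libraries (SD, n = 2). CPM is the count relative to the library total, here scaled with TMM factors, which adjust library sizes for composition. A low-count filter left 30 members for testing among 16256 genes, 4 of the alpha, 11 of the beta and 15 of the gamma cluster. Of the 23 others, PCDHA2, PCDHA5, PCDHA7, PCDHA13 and PCDHB1 had no count in any library. The 11 untested alpha members held 46 counts in all libraries together and at most 5 in any library, the 5 untested beta members 56 and 7, and the 7 untested gamma members 122 and 11. The filter level of 0.505 CPM had to be passed in at least 2 libraries. None of the 4 tested alpha members was above it in an shNTC library, and PCDHA10 was above it only in shYAP+TAZ libraries. PCDHB7 passed through 2 resistant libraries alone, and PCDHGA7 was above the level in 3 shYAP+TAZ libraries, 1 shNTC library and 0 resistant libraries. A member that passed only through its higher group had to differ to be tested, so the calls of the alpha members against shNTC, of PCDHA10, and of PCDHB7 and PCDHGA7 in resistant against shYAP+TAZ are given as descriptions. Above that level in every library were 7 of the 11 beta and 10 of the 15 gamma members tested. All p-values below are edgeR quasi-likelihood tests with Benjamini-Hochberg adjustment over the 16256 genes. They measure only the spread between libraries, since no label says that libraries came from separate cultures.

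Both hairpin targets were lower in every shYAP+TAZ library than in every shNTC library: YAP1 averaged 102 ± 2.82 CPM in resistant, 156 ± 0.85 CPM in shYAP+TAZ and 382 ± 9.26 CPM in shNTC libraries, and WWTR1 averaged 71.1 ± 4.69, 50.2 ± 0.882 and 126 ± 0.774 CPM in the same order (SD, n = 3, 3 and 2). The 8 ductal and epithelial markers examined were all above 1 CPM. They summed to 6414 to 6931 CPM in resistant, 5310 to 5529 CPM in shYAP+TAZ and 4299 to 4632 CPM in shNTC libraries. KRT19 (1285, 796 and 805 CPM), EPCAM (967, 788 and 844 CPM) and MUC1 (182, 549 and 399 CPM) did not follow that order of groups. Neuronal markers, which matter here because neurons express these clusters, summed to 7.61 to 8.34, 8.63 to 9.54 and 16.3 to 16.6 CPM over 10 genes. Of those, 3 exceeded 1 CPM and NEFL, NEFM and GAP43 had no count. MAP2 (4.39, 4.86 and 10.9 CPM) and TUBB3 (1.66, 3.14 and 4.52 CPM) were lowest in resistant libraries. SYP (1.08, 0.804 and 0.672 CPM) and SNAP25 (0.763, 0.046 and 0 CPM) were highest there. The part of the neuronal markers in the results below was not tested. The sums were 16.6 to 17.8, 12 to 13 and 17.5 to 18.7 CPM for 9 fibroblast markers (PDGFRA at 0). Within that list COL1A1 (11.7, 5.8 and 1.85 CPM) and ACTA2 (4.36, 5.73 and 15.4 CPM) had opposite orders of groups. For 6 acinar and islet markers the sum was at most 0.727 CPM in any library. In bulk RNA, fewer cells expressing a member and less RNA of it per cell cannot be told apart.

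The alpha cluster stood apart between the groups. Its 15 members summed to 71, 96 and 92 counts in the resistant libraries, 253, 291 and 264 in the shYAP+TAZ libraries and 18 and 16 in the shNTC libraries. No resistant library overlapped either other group, and the shYAP+TAZ libraries were the highest. That is 4.53 ± 0.864, 13 ± 0.0848 and 0.884 ± 0.2 CPM in resistant, shYAP+TAZ and shNTC libraries (SD, n = 3, 3 and 2). The alpha share of all members' counts was 6.41% in resistant, 14.3% in shYAP+TAZ and 1.25% in shNTC libraries. The log2 ratio of the alpha sums was 3.87 for shYAP+TAZ over shNTC, -1.52 for resistant over shYAP+TAZ and 2.36 for resistant over shNTC, and 2.95, -1.12 and 1.83 without PCDHAC2.

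The beta cluster changed little as a sum, with 441, 415 and 441 counts in resistant, 409, 419 and 407 in shYAP+TAZ and 388 and 424 in shNTC libraries. In CPM these were 22.6 ± 0.66, 19.9 ± 1.2 and 20.9 ± 1.72 (SD, n = 3, 3 and 2), and the resistant libraries lay just above the shYAP+TAZ libraries and overlapped the shNTC libraries. The gamma cluster, with most members, summed to 830, 743 and 911 counts in resistant, 1143, 1347 and 1131 in shYAP+TAZ and 865 and 1005 in shNTC libraries. This corresponds to 43.1 ± 1.9, 58 ± 2.57 and 48 ± 1.88 CPM, with every shYAP+TAZ library above, and every resistant library below, the shNTC libraries. The log2 ratio of the gamma sums was 0.28 for shYAP+TAZ over shNTC and -0.43 for resistant over shYAP+TAZ, and 0.03 and -0.30 without PCDHGB7. Resistant over shNTC gave -0.15 for gamma, and the beta sums gave -0.07, 0.18 and 0.11 for shYAP+TAZ over shNTC, resistant over shYAP+TAZ and resistant over shNTC.

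**Figure D1:**
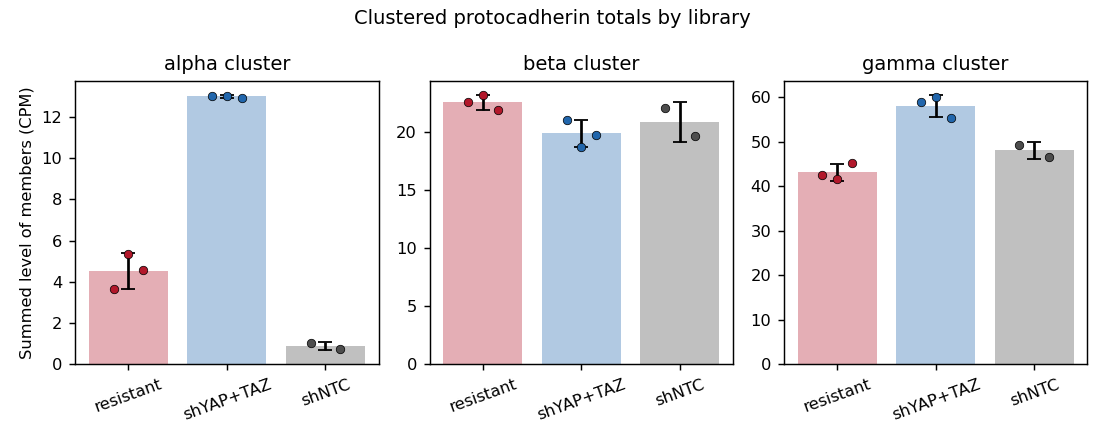
Summed CPM of the alpha, beta and gamma members (y axis, linear, from 0) in resistant, shYAP+TAZ and shNTC libraries, with bars for the group mean, error bars for the SD and points for libraries. The alpha sums average 4.53, 13 and 0.884 CPM in that order, while the beta sums average between 19.9 and 22.6 CPM.

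In the comparison of shYAP+TAZ with shNTC, 10 members rose and 8 fell at adjusted p under 0.05, which is 60% of the 30 tested. Over all genes tested the share called was 60.7% (30.3% higher and 30.4% lower), so the count is not a result about these members. Their median log2 fold change was 0.11, against 0.00 over all genes. By cluster, 4 alpha members rose and 0 fell, 1 beta member rose and 4 fell, and 5 gamma members rose and 4 fell. The 4 alpha calls are descriptions, because no shNTC library was above the filter level for these members.

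In resistant against shYAP+TAZ, 5 members rose and 16 fell, 70% of those tested, beside 62.5% of all genes (31.1% higher and 31.4% lower). The share that fell was 53.3%, and the median log2 fold change was -0.64, against 0.00 over all genes. The falls comprised 4 alpha, 1 beta and 11 gamma members, and the rises 4 beta members and 1 gamma member. Among these, the calls of PCDHA10, PCDHB7 and PCDHGA7 are descriptions because of the filter. In resistant against shNTC, 5 members rose and 10 fell, 50% of those tested, beside 62.7% of all genes (30.1% higher and 32.6% lower). The median was -0.18, against -0.01 over all genes. Of these calls, 3 rises were in the alpha, 1 in the beta and 1 in the gamma cluster. The 3 alpha rises are likewise descriptions because of the filter. Of the falls, 2 were in the beta and 8 in the gamma cluster. The comparisons share libraries, so a gene high in shYAP+TAZ libraries is drawn towards a rise in the first and a fall in the second.

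**Figure D2:**
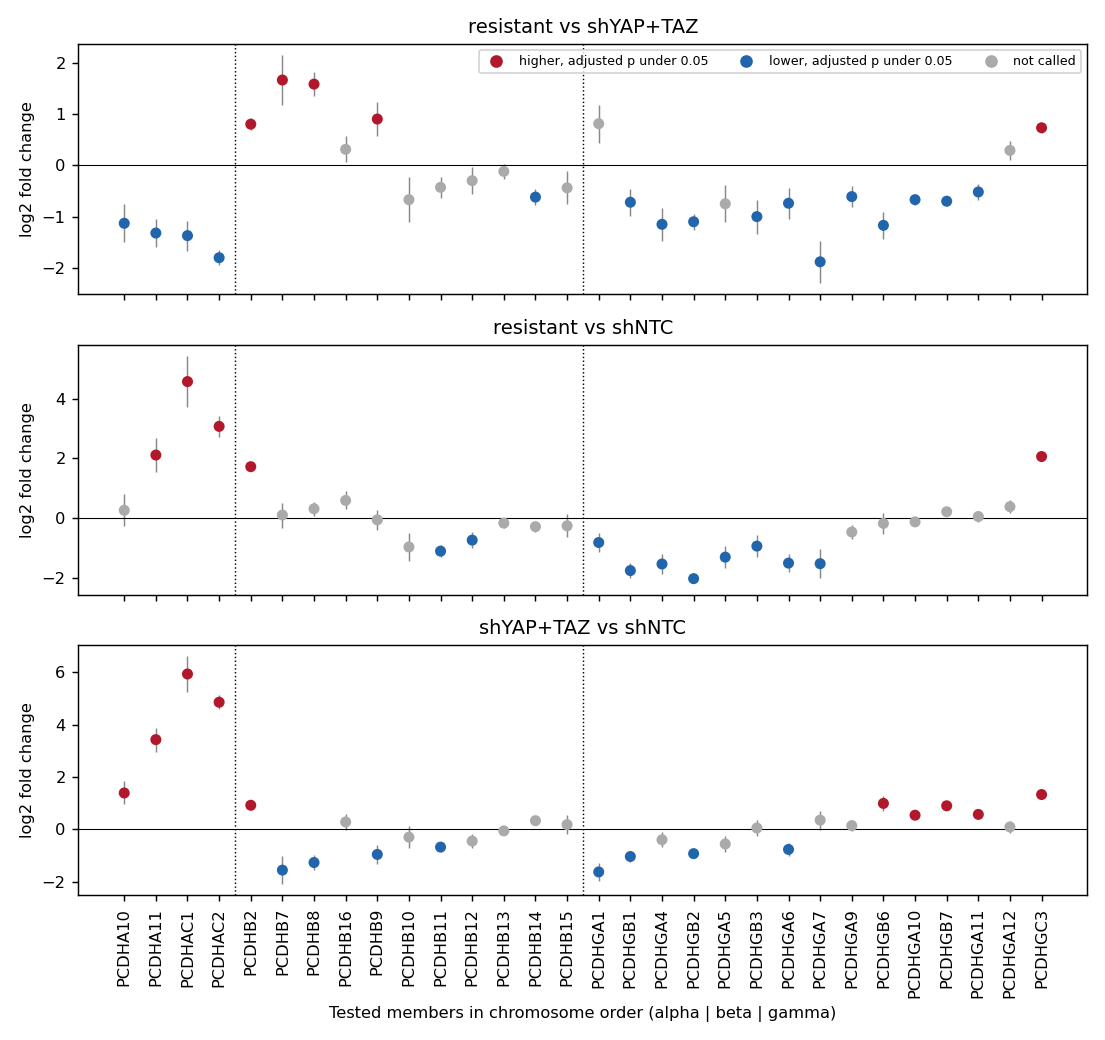
Log2 fold change of each of the 30 tested members in chromosome order, with dotted lines between clusters, for the 3 comparisons; vertical bars are the SE, red and blue points passed adjusted p under 0.05 as higher and lower, and grey points did not. The alpha members reach up to 5.94 in shYAP+TAZ against shNTC (PCDHAC1, with 1 count in shNTC libraries). In resistant against shYAP+TAZ, 11 of the 15 gamma members (73.3%) are called lower, beside 31.4% of all genes tested.

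Within the alpha cluster the C-type members, which sit nearest the constant exons and diverge in sequence from the alternate isoforms, held most counts in resistant and shYAP+TAZ libraries. PCDHAC2 (chromosome 5, 140966235 to 141012344) had 42, 54 and 42 counts in resistant, 158, 177 and 187 in shYAP+TAZ and 7 and 4 in shNTC libraries. The 3 groups did not overlap, and PCDHAC2 made up 53.3% of alpha counts in resistant and 64.6% in shYAP+TAZ libraries. Its log2 fold change was 4.86 ± 0.27 in shYAP+TAZ against shNTC (SE, adjusted p = 1.4e-12), -1.80 ± 0.15 in resistant against shYAP+TAZ (adjusted p = 8.8e-10) and 3.07 ± 0.35 in resistant against shNTC (adjusted p = 1.3e-07). The values against shNTC are descriptions because of the filter.

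PCDHAC1 (140926369 to 141012344) was the other C-type member, with 7, 17 and 19 counts in resistant, 47, 39 and 35 in shYAP+TAZ and 0 and 1 in shNTC libraries. The groups again did not overlap. With 1 count in the shNTC libraries the fitted fold change depends on the prior count, so the ratio is given with its 95% counting interval: 75.9 (13.4 to 3022) for shYAP+TAZ over shNTC and 29.2 (4.98 to 1182) for resistant over shNTC (adjusted p = 1.1e-07 and 8.6e-05). Both calls against shNTC are descriptions because of the filter. Resistant against shYAP+TAZ gave a log2 fold change of -1.37 ± 0.29 (SE, adjusted p = 3.1e-04).

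PCDHA11 and PCDHA10 are alternate isoforms. PCDHA11 had 9, 11 and 13 counts in resistant, 26, 40 and 24 in shYAP+TAZ and 2 and 3 in shNTC libraries, again without overlap. Its log2 fold change was 3.43 ± 0.46 in shYAP+TAZ against shNTC (SE, adjusted p = 1.2e-06), -1.32 ± 0.28 in resistant against shYAP+TAZ (adjusted p = 3.7e-04) and 2.11 ± 0.56 in resistant against shNTC (adjusted p = 0.00252). The PCDHA11 values against shNTC are descriptions because of the filter. PCDHA10, which led the few alpha counts of the shNTC libraries with 38.2% of them, had 6, 7 and 10, 14, 26 and 15, and 9 and 4 counts in resistant, shYAP+TAZ and shNTC libraries. Its log2 fold change was 1.39 ± 0.44 in shYAP+TAZ against shNTC (SE, adjusted p = 0.00981) and -1.13 ± 0.37 in resistant against shYAP+TAZ (adjusted p = 0.0123). Both values are descriptions, because PCDHA10 passed the filter through shYAP+TAZ libraries alone. Both PCDHA10 calls were lost without shYAP+TAZ replicate 2, the first also without shNTC replicate 2 and the second also without resistant replicate 1.

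Of 6 endothelial markers, VWF had the same order of groups as the alpha sums, at 4.05, 9.4 and 0.802 CPM in resistant, shYAP+TAZ and shNTC libraries. The list's sum was 4.36 to 5.85, 9.36 to 11.5 and 1.58 to 1.99 CPM, and VWF made most of it in resistant and shYAP+TAZ libraries only. The other markers did not have that order of groups: PECAM1 averaged 0.752, 0.241 and 0.599 CPM, CDH5 0.461, 0.397 and 0.184 CPM and TEK 0.0166, 0.0957 and 0.201 CPM. KDR had no count, and ERG had 1 count in all libraries together.

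**Figure D3:**
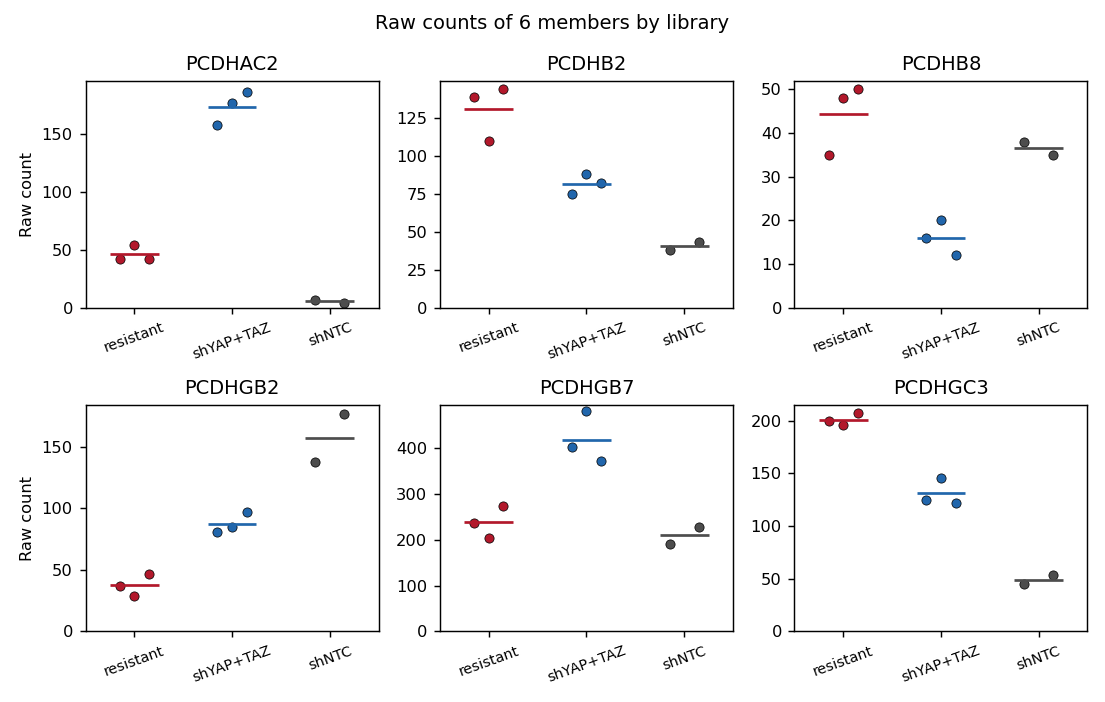
Raw counts of PCDHAC2, PCDHB2, PCDHB8, PCDHGB2, PCDHGB7 and PCDHGC3 in each resistant, shYAP+TAZ and shNTC library (points) with the group mean (line). PCDHB2 and PCDHGC3 are highest in resistant libraries, PCDHAC2 and PCDHGB7 in shYAP+TAZ libraries and PCDHGB2 in shNTC libraries.

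Among the beta genes, whose products lack the shared cytoplasmic end, directions were mixed. PCDHB2 (141094578 to 141098703) had 139, 110 and 144 counts in resistant, 75, 88 and 82 in shYAP+TAZ and 38 and 43 in shNTC libraries. Its counts were highest in resistant and lowest in shNTC libraries, and no groups overlapped. The log2 fold change was 0.92 ± 0.17 in shYAP+TAZ against shNTC (SE, adjusted p = 9.2e-05), 0.80 ± 0.12 in resistant against shYAP+TAZ (adjusted p = 7.1e-06) and 1.72 ± 0.16 in resistant against shNTC (adjusted p = 5.3e-09). PCDHB2 made up 30.3% of beta counts in resistant libraries, whereas PCDHB13 led in shYAP+TAZ with 24% and in shNTC with 23.8%.

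PCDHB8 (141177790 to 141180529) was lowest in the group where the alpha sums were highest. It had 35, 48 and 50 counts in resistant, 16, 20 and 12 in shYAP+TAZ and 38 and 35 in shNTC libraries. Its shYAP+TAZ libraries lay below all others, with a log2 fold change of -1.27 ± 0.28 against shNTC (SE, adjusted p = 5.1e-04) and 1.58 ± 0.24 in resistant against shYAP+TAZ (adjusted p = 9.0e-06). Resistant against shNTC gave 0.31 ± 0.23 (adjusted p = 0.258), and those groups overlapped. PCDHB8 shares sequence with other genes of the clusters. Of its 50-base words, 54.2% were found in the GENCODE transcripts of no other cluster gene, the lowest share in the beta cluster. This share was 34.8% to 77.5% over alpha and 28.9% to 69.1% over gamma members, where shared constant exons also lower it. It was 51.6% for PCDHGB7 and 48.7% for PCDHGB2. For all of these, the labels do not say how multiply placed reads were counted.

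The nearby PCDHB7 and PCDHB9 followed the same directions on few counts. PCDHB7 had 10, 7 and 13 counts in resistant, 5, 2 and 3 in shYAP+TAZ and 9 and 10 in shNTC libraries. Its log2 fold change was -1.56 ± 0.53 in shYAP+TAZ against shNTC (SE, adjusted p = 0.0153) and 1.66 ± 0.48 in resistant against shYAP+TAZ (adjusted p = 0.00488). The rise is a description, because PCDHB7 passed the filter through resistant libraries alone. PCDHB9 had 14, 14 and 17, 10, 6 and 10, and 14 and 18 counts in resistant, shYAP+TAZ and shNTC libraries, with -0.96 ± 0.37 (SE, adjusted p = 0.0296) and 0.90 ± 0.34 (adjusted p = 0.0261) for the same comparisons. The fall of PCDHB7 was lost without either shNTC library or shYAP+TAZ replicate 2, as was the fall of PCDHB9, whose rise was lost without shYAP+TAZ replicate 2, resistant replicate 2 or resistant replicate 3.

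PCDHB11, PCDHB12 and PCDHB14 were lower in resistant libraries in at least 1 comparison. PCDHB11 had 25, 28 and 28 counts in resistant, 42, 37 and 39 in shYAP+TAZ and 59 and 60 in shNTC libraries, and fell in shYAP+TAZ against shNTC by 0.68 ± 0.19 (log2, SE, adjusted p = 0.00409) and in resistant against shNTC by 1.11 ± 0.21 (adjusted p = 8.1e-05). Without shNTC replicate 1 the first of these calls was lost. PCDHB12 had 26, 15 and 16, 27, 28 and 21, and 31 and 34 counts in the same order of groups, with -0.74 ± 0.27 in resistant against shNTC (adjusted p = 0.022), a call lost without shNTC replicate 1, resistant replicate 2 or resistant replicate 3.

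PCDHB14 had 58, 37 and 48 counts in resistant, 78, 82 and 78 in shYAP+TAZ and 56 and 63 in shNTC libraries, with -0.62 ± 0.16 in resistant against shYAP+TAZ (SE, adjusted p = 0.00187). PCDHB13, the most abundant beta gene of the sensitive groups, did not pass the test in any comparison, at 84, 92 and 76 counts in resistant, 101, 91 and 104 in shYAP+TAZ and 94 and 99 in shNTC libraries. PCDHB16 had 19, 26 and 26, 23, 22 and 17, and 13 and 19 counts in that order and also passed in none. Neither did PCDHB10 and PCDHB15, which had 24 counts or fewer in every library.

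In the gamma cluster, the members nearest its downstream end and those nearest its start had different fold changes against shNTC. PCDHGB7 (141417645 to 141512979), the member with most counts in every group, had 236, 204 and 275 counts in resistant, 403, 481 and 372 in shYAP+TAZ and 192 and 229 in shNTC libraries. The shYAP+TAZ libraries lay above all others, with a log2 fold change of 0.90 ± 0.10 against shNTC (SE, adjusted p = 1.7e-07) and -0.70 ± 0.09 in resistant against shYAP+TAZ (adjusted p = 8.2e-07). Resistant against shNTC gave 0.21 ± 0.11 (adjusted p = 0.113).

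PCDHGA10, PCDHGA11 and PCDHGB6, its neighbours, were likewise higher in shYAP+TAZ than in shNTC libraries and lower in resistant than in shYAP+TAZ libraries. PCDHGA10 had 103, 87 and 128 counts in resistant, 168, 202 and 178 in shYAP+TAZ and 106 and 131 in shNTC libraries, with a log2 fold change of 0.54 ± 0.12 in shYAP+TAZ against shNTC (SE, adjusted p = 8.6e-04) and -0.67 ± 0.11 in resistant against shYAP+TAZ (adjusted p = 2.6e-05). PCDHGA11 had 46, 50 and 56, 69, 89 and 79, and 44 and 56 counts in resistant, shYAP+TAZ and shNTC libraries, with 0.57 ± 0.17 (SE, adjusted p = 0.00558) and -0.52 ± 0.15 (adjusted p = 0.00422), and both calls were lost with DESeq2. PCDHGB6 was scarcer, at 12, 11 and 12, 29, 28 and 29, and 14 and 13 counts, with 0.99 ± 0.29 (SE, adjusted p = 0.00521, lost without shNTC replicate 2) and -1.17 ± 0.26 (adjusted p = 5.6e-04).

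PCDHGC3 (141475947 to 141512979), a C-type member also expressed in tissues other than the nervous system, had 200, 196 and 207 counts in resistant, 125, 146 and 122 in shYAP+TAZ and 45 and 53 in shNTC libraries. The groups did not overlap and were in the same order as for PCDHB2, with a log2 fold change of 1.33 ± 0.15 in shYAP+TAZ against shNTC (SE, adjusted p = 9.5e-08), 0.73 ± 0.10 in resistant against shYAP+TAZ (adjusted p = 1.6e-06) and 2.06 ± 0.14 in resistant against shNTC (adjusted p = 2.9e-11). PCDHGC3 and PCDHB2 were the members higher in all 3 comparisons.

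PCDHGB2 (141360042 to 141512979) moved the other way, with 37, 29 and 47 counts in resistant, 81, 85 and 97 in shYAP+TAZ and 138 and 177 in shNTC libraries. The groups did not overlap, and its log2 fold change was -0.93 ± 0.14 in shYAP+TAZ against shNTC (SE, adjusted p = 5.4e-06), -1.10 ± 0.16 in resistant against shYAP+TAZ (adjusted p = 5.6e-06) and -2.03 ± 0.16 in resistant against shNTC (adjusted p = 4.4e-10). PCDHGB1 was similar, with 20, 23 and 16, 25, 41 and 40, and 73 and 63 counts in resistant, shYAP+TAZ and shNTC libraries. Its log2 fold changes were -1.04 ± 0.22, -0.72 ± 0.26 and -1.76 ± 0.24 (SE, adjusted p = 3.1e-04, 0.0188 and 2.1e-06), and the call in resistant against shYAP+TAZ was lost without shYAP+TAZ replicate 2 or 3 or resistant replicate 3.

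PCDHGA6 had 23, 13 and 13 counts in resistant, 18, 38 and 33 in shYAP+TAZ and 52 and 43 in shNTC libraries, and its calls were -0.77 ± 0.26, -0.74 ± 0.30 and -1.51 ± 0.30 (log2, SE, adjusted p = 0.0151, 0.0374 and 1.4e-04). The resistant and shYAP+TAZ libraries overlapped, and that call was lost without shYAP+TAZ replicate 2 or 3 or resistant replicate 2 or 3, and the one in shYAP+TAZ against shNTC without the first library of either group. PCDHGA1, the most upstream gamma gene, had 13, 10 and 16, 11, 8 and 5, and 24 and 23 counts in resistant, shYAP+TAZ and shNTC libraries. Its log2 fold change was -1.63 ± 0.36 in shYAP+TAZ against shNTC (SE, adjusted p = 5.0e-04) and -0.82 ± 0.32 in resistant against shNTC (adjusted p = 0.0324), the second call being lost without shNTC replicate 1 or resistant replicate 1 or 2.

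PCDHGA4, PCDHGA5, PCDHGA7 and PCDHGB3 did not pass the test after knockdown and were lower in resistant than in shNTC libraries. PCDHGA4 had 12, 7 and 10 counts in resistant, 18, 22 and 30 in shYAP+TAZ and 21 and 37 in shNTC libraries, with -1.15 ± 0.32 in resistant against shYAP+TAZ (SE, adjusted p = 0.0037) and -1.54 ± 0.33 against shNTC (adjusted p = 3.8e-04). PCDHGA5 had 6, 9 and 15, 24, 19 and 12, and 24 and 27 counts in the same order, with -1.31 ± 0.36 in resistant against shNTC (adjusted p = 0.00359). PCDHGA7 was at 3, 5 and 4, 15, 22 and 12, and 9 and 15 counts, with -1.88 ± 0.41 and -1.53 ± 0.48 in resistant against shYAP+TAZ and shNTC (SE, adjusted p = 4.6e-04 and 0.00908). No resistant library was above the filter level, so its fall against shYAP+TAZ is a description. PCDHGB3 was at 8, 12 and 8, 23, 22 and 16, and 13 and 24 counts, and was lower in resistant than in shYAP+TAZ libraries (adjusted p = 0.0122) and than in shNTC libraries (log2 fold change -0.94 ± 0.37, SE, adjusted p = 0.0314). The PCDHGA7 and PCDHGB3 calls against shNTC were lost without shNTC replicate 2, those of PCDHGB3 against shNTC also without resistant replicate 1 or 3 and against shYAP+TAZ without shYAP+TAZ replicate 1 or resistant replicate 3.

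PCDHGA9 had 39, 23 and 40 counts in resistant, 46, 71 and 52 in shYAP+TAZ and 47 and 49 in shNTC libraries, with a log2 fold change of -0.61 ± 0.20 in resistant against shYAP+TAZ (SE, adjusted p = 0.0105). That call was lost without shYAP+TAZ replicate 2 or resistant replicate 2. PCDHGA12 passed the test in no comparison, at 62, 55 and 58 counts in resistant, 61, 53 and 41 in shYAP+TAZ and 51 and 40 in shNTC libraries.

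Along the gamma cluster, the log2 fold changes of the 15 tested members against shNTC tended to rise with their order from PCDHGA1 to PCDHGC3. In resistant against shYAP+TAZ the order was followed only weakly. There PCDHGA1, at the start, had 0.81 (not called) and PCDHGC3, at the end, 0.73. Between position and fold change, Pearson's r was 0.88 and Spearman's rho 0.86 in shYAP+TAZ against shNTC, 0.30 and 0.35 in resistant against shYAP+TAZ, and 0.89 and 0.85 in resistant against shNTC. Over the 11 tested beta members the values were -0.14 and 0.26, -0.57 and -0.75, and -0.75 and -0.68. These are descriptions across genes that share libraries and partly the same exons, and the comparisons share libraries.

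**Figure D4:**
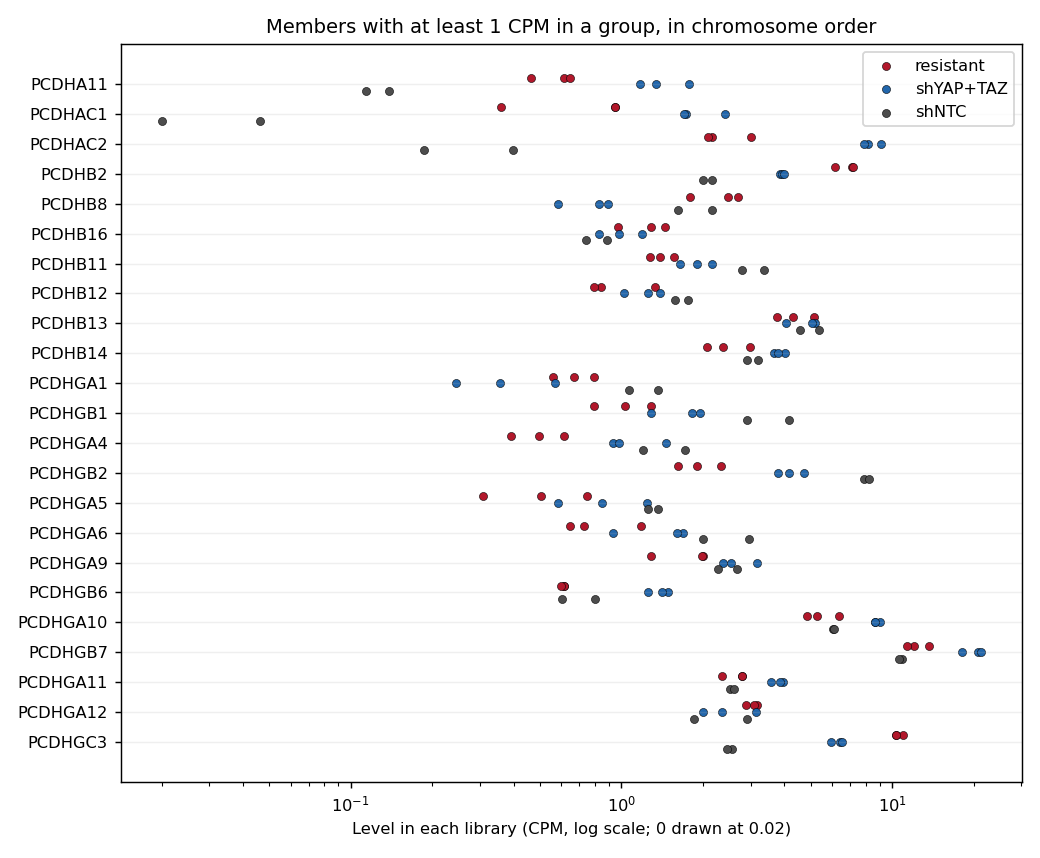
CPM (log scale, a count of 0 drawn at 0.02) in each library for the 23 members with a mean of at least 1 CPM in a group, from top to bottom in chromosome order, with resistant, shYAP+TAZ and shNTC libraries as 3 lines per gene. PCDHGB7 has the highest CPM in every group, averaging 12.4, 20.1 and 10.8 CPM.

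On the deposited RPKM scale, which divides by gene length, PCDHGB7 also came first in every group, with 2.53 ± 0.217 RPKM in resistant, 4.01 ± 0.339 in shYAP+TAZ and 2.15 ± 0.0298 in shNTC libraries (SD, n = 3, 3 and 2). In resistant libraries PCDHGC3 followed at 2.12 ± 0.0914 and PCDHB2 at 1.67 ± 0.133 RPKM, and PCDHB13, PCDHB8 and PCDHGA10, at 0.885 ± 0.144, 0.86 ± 0.173 and 0.84 ± 0.111 RPKM, did not differ beyond their spread. In shYAP+TAZ libraries PCDHAC2, PCDHGA10 and PCDHGC3, at 1.36 ± 0.109, 1.31 ± 0.0296 and 1.24 ± 0.0571 RPKM, came next; the ranges of the first pair overlapped and PCDHGC3 lay just below PCDHGA10. In shNTC libraries PCDHGB2 was next at 1.67 ± 0.0625 RPKM, then PCDHB13 at 0.971 ± 0.0987 and PCDHGA10 at 0.902 ± 0.0101 RPKM, whose ranges overlapped. The lengths behind the deposited RPKM matched the union of all GENCODE 29 exons for 46 of 48 members with a count, so they include the constant exons shared within the alpha and gamma clusters. PCDHA2, PCDHA5, PCDHA7 and PCDHA13 had no count in libraries where PCDHAC2 had more than 100, so shared-exon reads were not counted for every member. The order across clusters therefore depends on the length used. Per kilobase of exon belonging to no other cluster gene, PCDHGA10 averaged 1.23 CPM in resistant libraries, above PCDHB13 at 0.872 and PCDHB8 at 0.847. By that measure PCDHGB1 at 1.37 and PCDHGA10 at 1.36 CPM exceeded PCDHB13 at 0.983 in shNTC libraries.

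The 5 tested genes outside the clusters whose log2 CPM over the 8 libraries was most like that of PCDHGB7 were MRPL28 (r = 0.9931), DDR1 (0.9927), NAB2 (0.9921), PIGT (0.9915) and UBXN1 (0.9909). The 8 points share 3 groups.

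Genes with a known part in the regulation of the clusters moved in both directions. Of 28 tested, 8 rose and 10 fell in shYAP+TAZ against shNTC, 5 rose and 13 fell in resistant against shYAP+TAZ, and 5 rose and 16 fell in resistant against shNTC, with median log2 fold changes of -0.08, -0.14 and -0.24. These are 64.3%, 64.3% and 75% of the list, beside 60.7%, 62.5% and 62.7% of all genes in the same comparisons. CTCF, which binds the promoters, averaged 65.9 ± 2.67, 76.1 ± 2.14 and 72.2 ± 3.01 CPM in resistant, shYAP+TAZ and shNTC libraries, and passed the test only in resistant against shYAP+TAZ (log2 fold change -0.21 ± 0.06, SE, adjusted p = 0.00399). RAD21, the cleaved subunit of cohesin, averaged 556 ± 8.21, 361 ± 17.1 and 754 ± 41.8 CPM in the same groups (-1.06 in shYAP+TAZ against shNTC), and STAG2, another cohesin subunit, 224 ± 16.1, 269 ± 12.8 and 135 ± 4.39 CPM (0.99). SMCHD1, a repressor of the clusters known from the mouse, averaged 77.4 ± 4.14, 81.3 ± 4.07 and 82.1 ± 2.81 CPM and passed in none. DNMT3B, a DNA methyltransferase that methylates these promoters in mouse embryos, averaged 10.7 ± 1.12, 4.03 ± 0.363 and 6.11 ± 0.379 CPM (1.41 in resistant against shYAP+TAZ), and DNMT3A 24.7 ± 1.94, 45.7 ± 0.326 and 35.9 ± 3.9 CPM (-0.89). In shYAP+TAZ against shNTC, ATF7IP, a cofactor of the histone methyltransferase SETDB1, had a log2 fold change of -1.05, EZH2, another histone methyltransferase, -0.72, and TET3, a DNA demethylase, 0.71. EHMT1, a further methyltransferase, had -0.89, and NIPBL, which loads cohesin, -0.82 in resistant against shYAP+TAZ, where RAD21 had 0.62. In resistant against shNTC, EHMT1 had -1.19, SETDB1 -0.84, EZH2 -0.81, DNMT3B 0.81 and STAG2 0.73.

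The cytoplasmic partners and the proteases that cut protocadherins, 21 of 22 tested, gave 11 rises and 5 falls in shYAP+TAZ against shNTC, 3 and 14 in resistant against shYAP+TAZ and 6 and 9 in resistant against shNTC, with medians of 0.18, -0.34 and -0.04. Called were 76.2%, 81% and 71.4% of the list, beside 60.7%, 62.5% and 62.7% of all genes. PTK2, the focal adhesion kinase that alpha and gamma tails bind and inhibit, averaged 140 ± 5.33, 282 ± 3.76 and 374 ± 1.76 CPM (-1.01 in resistant against shYAP+TAZ). FYN, a tyrosine kinase, averaged 5.17 ± 0.112, 28.5 ± 2.48 and 23.5 ± 0.765 CPM (-2.46), MARCKS, an actin-regulating protein, 25.7 ± 2.38, 107 ± 2.23 and 114 ± 2.23 CPM (-2.06), and NCSTN, a subunit of gamma-secretase, 92.5 ± 1.7, 184 ± 3.92 and 187 ± 3.03 CPM (-1.02 in resistant against shNTC). Of the WAVE complex, which binds a motif in many of these tails, WASF2 averaged 99 ± 6.13, 54.9 ± 1.91 and 121 ± 5.91 CPM (-1.14 in shYAP+TAZ against shNTC and 0.85 in resistant against shYAP+TAZ) and WASF1 17.5 ± 1.06, 32.5 ± 0.596 and 17.2 ± 0.388 CPM (0.92 and -0.89 in the same comparisons). Of the same complex, CYFIP2 had log2 fold changes of -1.31 and 0.63 in these comparisons and BRK1 0.71 and -0.34, and in resistant against shNTC BRK1 had 0.37 and CYFIP1 0.35. In resistant against shNTC, FYN had -2.18, MARCKS -2.15 and PTK2 -1.42.

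Of 24 non-clustered protocadherins and related large cadherins, 10 were tested, and 4 rose and 3 fell in shYAP+TAZ against shNTC, 1 rose and 7 fell in resistant against shYAP+TAZ, and 3 rose and 5 fell in resistant against shNTC, with medians of 0.27, -0.51 and -0.42. Called were 70%, 80% and 80% of the list, beside 60.7%, 62.5% and 62.7% of all genes. PCDH7, a protocadherin of another chromosome, averaged 4.9 ± 1.15, 48.5 ± 4.33 and 71.5 ± 5.3 CPM in resistant, shYAP+TAZ and shNTC libraries (log2 fold change -3.30 in resistant against shYAP+TAZ). CELSR2, a cadherin of planar cell polarity, averaged 8.57 ± 0.475, 5.11 ± 0.219 and 35.5 ± 4.57 CPM (-2.79 in shYAP+TAZ against shNTC, 0.74 in resistant against shYAP+TAZ and -2.05 in resistant against shNTC). In shYAP+TAZ against shNTC, CDHR2 had a log2 fold change of 2.26, CELSR1 1.13 and FAT4 -0.79. In resistant against shYAP+TAZ, FAT4 had -2.46, CDHR2 -2.23 and CELSR3 -1.16, and in resistant against shNTC PCDH7 had -3.86, FAT4 -3.24, PCDH12 1.25 and CELSR1 1.08. Among 10 classical cadherins 5 were tested. CDH1, the main adhesion molecule of epithelia, averaged 813 ± 35.5, 697 ± 20.4 and 517 ± 5.03 CPM, and CDH2, the neural and mesenchymal one, 1.19 ± 0.319, 3.84 ± 0.261 and 6.67 ± 0.242 CPM. The list gave 1 rise and 3 falls in shYAP+TAZ against shNTC, 3 and 1 in resistant against shYAP+TAZ, and 2 and 1 in resistant against shNTC, which is 80%, 80% and 60% called. CDH2 had log2 fold changes of -0.79, -1.69 and -2.49 in these comparisons, CDH3 -0.70, 1.37 and 0.68, and CDH1 0.43, 0.22 and 0.65. CDH24 had -0.50 and 0.48 in the first and second of them.

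Genes flanking or lying between the clusters did not share one direction. Of 20 tested, 5 rose and 10 fell in shYAP+TAZ against shNTC, 7 rose and 6 fell in resistant against shYAP+TAZ, and 3 rose and 12 fell in resistant against shNTC, with medians of -0.29, 0.02 and -0.34. Called were 75%, 65% and 75% of the list, beside 60.7%, 62.5% and 62.7% of all genes. TAF7, a subunit of the general transcription factor TFIID that lies between the beta and gamma clusters, averaged 191 ± 9.84, 162 ± 6.42 and 260 ± 25.7 CPM in resistant, shYAP+TAZ and shNTC libraries (log2 fold change -0.68 in shYAP+TAZ against shNTC). HDAC3, a histone deacetylase, averaged 48.4 ± 1.1, 43.2 ± 0.689 and 119 ± 7.68 CPM (-1.46), and SLC35A4, a transporter-family gene, 30.2 ± 2.35, 20.5 ± 2.06 and 135 ± 12.6 CPM (-2.72). RELL2 was higher in both other groups than in shNTC, at 2.49 ± 0.627, 2.3 ± 0.175 and 0.76 ± 0.107 CPM (1.57 in shYAP+TAZ against shNTC and 1.70 in resistant against shNTC), and HARS1 had 0.40 in shYAP+TAZ against shNTC. In resistant against shYAP+TAZ, FCHSD1 had a log2 fold change of 1.11, ARAP3 -0.72, IK -0.61 and SLC35A4 0.56. In resistant against shNTC, SLC35A4 had -2.16, HDAC3 -1.30, ZMAT2 -0.65 and FCHSD1 0.47.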

How the data were processed

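Whole-number counts per Ensembl gene and the matching RPKM values were deposited by the authors for all 8 libraries, and 0 columns were left out. Reads were single-end and 50 bases long, from a TrueSeq v2 kit, per the labels' protocols, and GSNAP, limma and GRCh38.p10 are named in the submitters' processing notes. The counting tool, its use of strand and its handling of shared exons are not given in the sources used here. The 13 antisense genes in the locus had at most 2 counts in any library.

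Symbols and positions came from GENCODE 29. edgeR 4.0.16 in R 4.3.3 was run on all 8 libraries with TMM factors, filterByExpr at a minimum count of 10, a term for group and 3 contrasts. Calls used an adjusted p under 0.05, and tests were two-sided. Each SE of an edgeR fold change was derived as the absolute log2 fold change divided by the square root of the F statistic of its test. The biological coefficient of variation was 5.35%. CPM values were computed from the counts. Cluster sums were described without a test. Ratios over 1 count carry a 95% interval that covers counting error only.

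Members with a mean of at least 1 CPM in a group, or called in any comparison, were named. From each of 5 lists of related genes, up to 4 genes with the largest called change were named per comparison, with up to 2 against the majority, plus CTCF and SMCHD1, which were chosen after their values were seen. The members and lists were chosen with earlier results of these data known. Within groups, chi-square per degree of freedom between libraries was 2.11 to 7.61, so no 2 libraries agreed within sampling noise. The alternative fits replaced TMM by upper-quartile or RLE factors, replaced edgeR by limma-voom (limma 3.58.1) or DESeq2 1.42.0, used 2 other filters, kept only the groups compared, added a replicate block, left out each library, or tested the deposited values as log2(RPKM + 1) and log2(RPKM + 0.1). A list of leukocyte markers was also examined and is not reported here.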

Additional observations from a re-analysis of the deposited data

How the results depend on the processing

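Across single members, 625 of the values with a library left out and 773 of those under other settings kept their side of the threshold, 38 and 44 lost a call and 6 and 1 gained one. Among the first, 9 and 1 changed sign without passing the test in either fit, and no called value changed sign. Called under every alternative that tested them were 7 of 10 members higher and 4 of 8 lower in shYAP+TAZ against shNTC. In resistant against shYAP+TAZ they were 4 of 5 and 10 of 16, and in resistant against shNTC 4 of 5 and 6 of 10. These numbers include members whose calls are given only as descriptions because of the filter.

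The 8 lower members in shYAP+TAZ against shNTC became 4 with DESeq2, 5 with a filter of at least 1 CPM in 3 libraries, 5 on log2(RPKM + 1) and 4 to 8 with a library left out (4 without shNTC replicate 1). In resistant against shYAP+TAZ the 5 higher members became 3 with the same filter and 3 to 6 with a library left out (3 without resistant replicate 3), and the 16 lower became 10 with DESeq2. In resistant against shNTC the 10 lower became 6 with DESeq2. The filter tests fewer members by construction, and for the other settings the cause was not tested. DESeq2 lost the calls of PCDHA10, PCDHB7, PCDHB11, PCDHB9, PCDHGA6, PCDHGA11 and PCDHGB6 in shYAP+TAZ against shNTC, of PCDHA10, PCDHB9, PCDHGA6, PCDHGA9, PCDHGA11, PCDHGB1 and PCDHGB3 in resistant against shYAP+TAZ, and of PCDHB12, PCDHGA1, PCDHGA7 and PCDHGB3 in resistant against shNTC. In the same order of comparisons, log2(RPKM + 1) lost PCDHA10, PCDHB7, PCDHB9 and PCDHGA6, then PCDHA10, PCDHGA6 and PCDHGB1, then PCDHA11, PCDHGA1, PCDHGA7 and PCDHGB3, and log2(RPKM + 0.1) lost PCDHA10 and PCDHGA6, then PCDHA10, PCDHGA6 and PCDHGB1, then PCDHGA1 and PCDHGB3. Without a filter PCDHB9 was lost in the first and second comparisons and PCDHGA1 in the last, and limma-voom lost PCDHGA6 in resistant against shYAP+TAZ.

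For cluster sums, adding RPKM in place of CPM gave an alpha log2 ratio of 4.28 in shYAP+TAZ against shNTC and 2.74 in resistant against shNTC, and a beta ratio of 0.29 in resistant against shYAP+TAZ. Without the most abundant member, alpha gave 2.95 (shYAP+TAZ against shNTC), -1.12 (resistant against shYAP+TAZ) and 1.83 (resistant against shNTC). Beta gave 0.27 and 0.19 for the comparisons of resistant with shYAP+TAZ and shNTC, and gamma gave 0.03, -0.30 and -0.27 in the order used for alpha. With a library left out, the alpha ratio in shYAP+TAZ against shNTC ran from 3.66 to 4.13. The beta ratio ran from 0.03 to 0.20 in resistant against shNTC and from -0.15 to 0.01 in shYAP+TAZ against shNTC, where it changed sign without shNTC replicate 1.

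Whether the replicate numbers pair the libraries was not established. Same-numbered libraries deviated from their group means with correlations of -0.103 to 0.111. These cannot decide it, because each mean rests on few libraries. With the replicate number as a block, the members lower in resistant against shNTC were 7 (PCDHB12, PCDHGA1 and PCDHGB3 were lost) and those lower in resistant against shYAP+TAZ were 15 (PCDHGA6 was lost). None of the 23 untested members had more than 11 counts in any library, and whether depth or absent expression limited them was not tested.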

Other observations

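The 6 protocadherin pseudogenes inside the clusters, which are no members, had 93 counts over all libraries and at most 11 in any library. PCDHGB8P, in the gamma cluster, had 3, 6 and 3 counts in resistant, 5, 11 and 6 in shYAP+TAZ and 4 and 2 in shNTC libraries.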
